A study of Mus musculus with 18 samples.

Results

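The ADAM and ADAMTS metalloproteases were followed through chemical skin carcinogenesis as 10 genes picked by name from the count table: Adam8, Adam9, Adam10, Adam12, Adam15, Adam17, Adam19, Adamts1, Adamts9 and Adamts20. They are 10 of 52636 gene rows, and each had a count in at least 1 library. RNA-Seq had been done on epidermal cells of mice homozygous for a floxed Zfp36 gene (Zfp36 fl/fl) and of littermates that also carry Cre under the keratin 14 promoter (labelled Zfp36 ΔK14, here ΔEP), so that Zfp36 is lost in basal keratinocytes and their descendants. Zfp36 encodes tristetraprolin (TTP), a protein that binds AU-rich elements in 3′ untranslated regions and promotes decay of the mRNA. Cells of each genotype came from mock-treated skin, from skin next to tumors after DMBA (an initiating mutagen) and TPA (a phorbol ester promoter), here called treated skin, and from the papillomas. The study's methods describe sorting of live EpCAM+ CD45- CD140a- CD31- cells, whereas the source field of the labels reads whole skin, and neither age nor sex is given in the labels used here.

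Each group had 3 libraries except mock ΔEP, where 2 columns held identical counts in every gene and were used once, leaving 2 (17 libraries in all, 2808550 to 9617985 counts). Nothing in the labels says that libraries of a group came from different mice, so p-values measure the spread between libraries, which may be technical in part. Levels are CPM, read counts scaled to library size with TMM factors. Zfp36 itself stood at 151.6 to 713.4 CPM with the floxed alleles intact and at 10.03 to 38.44 CPM in ΔEP libraries, with no overlap at any stage. Replicate 1 of mock skin stood apart in both genotypes: 11 keratinocyte markers (Krt5, Krt14, Krt1, Krt10, Dsp and others) summed to 6269 and 6618 CPM there against 26880 to 31140 CPM in the other mock libraries. Epcam, the marker of the sort, was level, at 90.6 to 116.3 CPM in the mock libraries of both genotypes. In tumors the same sum was 37850 CPM in fl/fl replicate 1, 12540 and 13670 CPM in the other fl/fl tumors, and 31840 to 33740 CPM in ΔEP tumors. The fl/fl tumor replicate 1 was also the shallowest library, with 19219 genes detected, and values without it or without the mock replicates 1 are given beside the results they move. Markers of endothelium (8 genes) summed to 11.12 to 42.14 CPM and of muscle (8 genes) to 7.227 to 74.6 CPM over the 17 libraries. Of 11 hair follicle markers 7 were called lower in tumors than in treated skin in each genotype (Lhx2, Dlx3, Foxn1, Shh, Lgr5, Msx2 and Krt75). In each 1 was called higher (Sox9 in fl/fl, Cd34 in ΔEP mice). The median log2 change of the list was −3.39 in fl/fl and −3.52 in ΔEP mice. Of all genes 10.5% and 15.5% were called lower.

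ADAM proteases are membrane-anchored enzymes that cut the extracellular part of other membrane proteins and release it, a step called shedding. In epidermis they free ligands of the EGF receptor, cut Notch receptors and E-cadherin, and release TNF. ADAMTS proteases lack the membrane anchor, carry thrombospondin repeats, and cleave matrix proteoglycans such as versican. TIMP proteins inhibit members of both families.

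Because TTP acts through AU-rich elements, the letters of these elements were sought first. The heptamer TATTTAT was searched on the sense strand, taking for every gene the GENCODE transcript with the longest 3′ untranslated region (build GRCm38). It occurred in 3 of the 10 genes, Adamts1 (3 copies in 1574 bases), Adamts9 (2 copies in 1883 bases) and Adamts20 (3 copies in 2439 bases), and in none of the 7 ADAM genes. Of all 20939 genes with an annotated region, 27.6% held it, and among genes with regions of like length 35.6%, 39.6% and 47.0% did. Adam12 had the longest region, 4743 bases, without the heptamer, whereas 65.8% of genes with regions of that length held it. The longer nonamer TTATTTATT was present in Adamts9 alone of the 10 genes (7.66% of all genes) and the shorter pentamer ATTTA in 8 of the 10 (65.2% of all genes), Adam8 and Adam15 being without it. Both the nonamer and the heptamer contain the pentamer, so these counts overlap. The following 27-base windows show 1 heptamer of Adamts1, both of Adamts9 and 1 of Adamts20 in their context, as the mRNA reads 5′ to 3′, with the heptamer in capitals. All 3 genes lie on the minus strand, at chr16:85794767-85794793, chr6:92773888-92773914, chr6:92773872-92773898 and chr15:94322561-94322587 in this order, and the 2 windows of Adamts9 overlap.
Adamts1, 618 bases after the stop codon: acaattcatcTATTTATaaaatgtaca
Adamts9, 678 bases after the stop codon: taaagtttaaTATTTATgtttgaaatt
Adamts9, 694 bases after the stop codon, the heptamer lying within the nonamer: tgtttgaaatTATTTATtgtgatgtaa
Adamts20, 196 bases after the stop codon: gttttatatgTATTTATatgtgaattt
A match is a description of the annotated sequence, not evidence of binding.

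**Figure D1:**
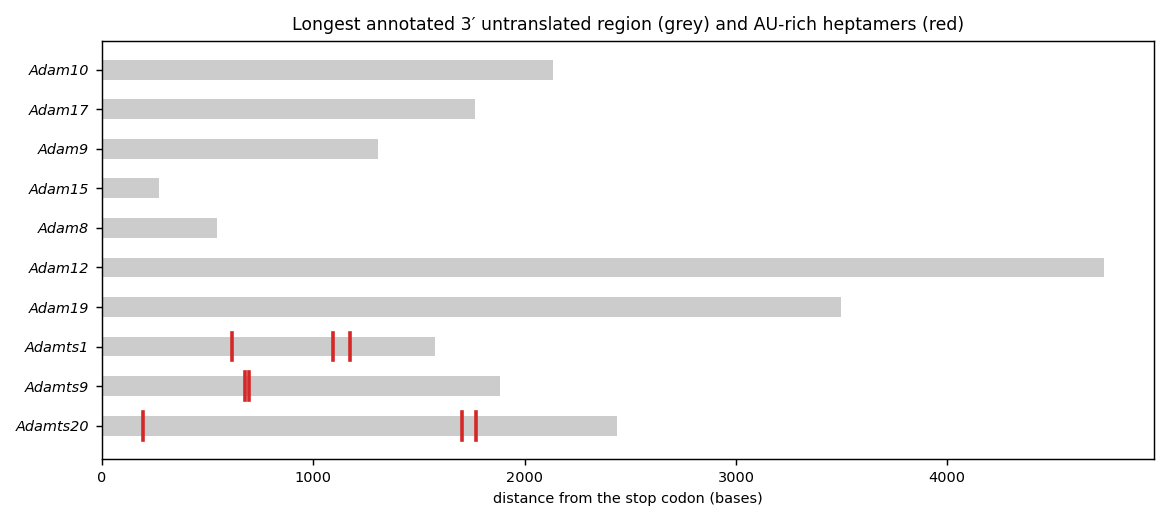
Length in bases of the longest 3′ untranslated region annotated for the 10 genes (grey bars, horizontal axis: distance from the stop codon), with each AU-rich heptamer as a red line. Red lines fall in Adamts1, Adamts9 and Adamts20 and in none of the ADAM genes, Adam12 with its 4743 bases included.

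The 10 genes spanned a wide range of levels. Per kilobase of annotated exon and averaged over the 17 libraries, Adamts1 was the most abundant at 74.69 CPM per kb, followed by Adam10 at 36.27, Adam17 at 12.86, Adam8 at 10.12, Adam9 at 9.279, Adam15 at 4.417 and Adamts9 at 2.976 CPM per kb. Adam12 (0.6778), Adamts20 (0.6665) and Adam19 (0.224 CPM per kb) were the least abundant. The profile over groups differed between them too, and Adam12, Adam8, Adam9, Adam10, Adam15, Adam17 and Adamts1 had their highest group mean in ΔEP tumors, Adamts9 and Adamts20 in treated skin and Adam19 in mock fl/fl skin.

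**Figure D2:**
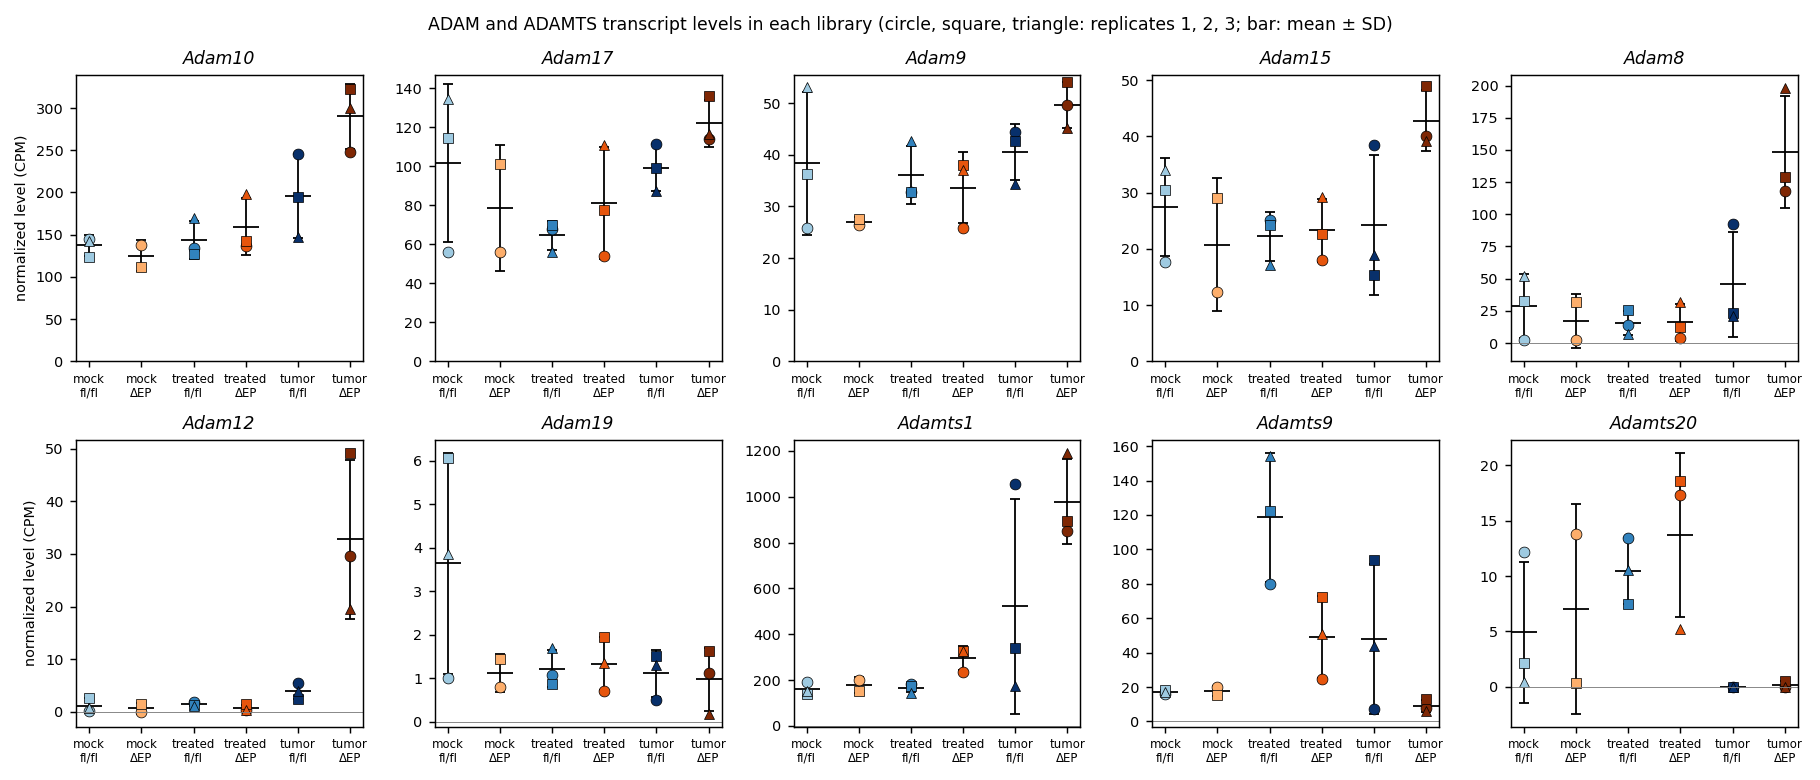
CPM of the 10 genes in each of the 17 libraries (points, the marker shape giving the replicate number) by stage and genotype, with the group mean and SD as bars. Adam12 stood at 19.5 to 49.2 CPM in ΔEP tumors and at no more than 5.5 CPM elsewhere, Adamts9 peaked in treated fl/fl skin, and Adamts20 was at or near 0 in tumors.

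Adam10 (ENSMUSG00000054693, chromosome 9) and Adam17 (ENSMUSG00000052593, chromosome 12) encode the principal sheddases of epidermis. ADAM10 is known for cutting Notch receptors and E-cadherin, and ADAM17 for releasing TNF and several EGF receptor ligands. Adam10 measured 145.4, 123.3 and 142.8 CPM in mock fl/fl skin, 138.1 and 112.1 CPM in mock ΔEP skin, 134.2, 127.6 and 169.1 CPM in treated fl/fl skin, and 136.8, 142.9 and 198.2 CPM in treated ΔEP skin. In tumors it measured 246, 194.5 and 147.3 CPM in fl/fl and 247.9, 322.4 and 300.5 CPM in the ΔEP libraries, so that ΔEP tumors lay above the libraries of all other groups. Adam17 varied widely within some groups, from 56.2 to 134.5 CPM in mock fl/fl skin and from 54.01 to 111.2 CPM in treated ΔEP skin. In treated fl/fl skin it spanned only 56.03 to 69.94 CPM. Its group means ran from 64.64 CPM (treated fl/fl skin) to 122.2 CPM (ΔEP tumors). It was at 87.54 to 111.5 CPM in fl/fl and at 114.1 to 136 CPM in the ΔEP tumors.

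Adam9 (ENSMUSG00000031555, chromosome 8) and Adam15 (ENSMUSG00000028041, chromosome 3) encode widely expressed ADAMs. Adam9 ran from 25.75 to 54.09 CPM over all 17 libraries and its group means from 27.05 CPM (mock ΔEP) to 49.68 CPM (ΔEP tumors). Adam15 ran from 12.41 to 49.02 CPM, and its 3 ΔEP tumors at 39.19 to 49.02 CPM lay above every other library, the nearest being fl/fl tumor replicate 1 at 38.5 CPM. For Adam15, 20.6% of its exonic bases are shared with the antisense gene 4731419I09Rik. Strand use in counting is not given in the sources used here, so reads of this stretch cannot be assigned, and the antisense gene was the most similar of 18251 genes to Adam15 over the 17 libraries (Pearson's r of log2 CPM 0.972).

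Adam8 (ENSMUSG00000025473, chromosome 7) encodes an ADAM best known from leukocytes and from inflamed or invasive epithelium. It measured 2.102, 32.89 and 51.75 CPM in mock fl/fl skin and 2.158 and 31.98 CPM in mock ΔEP skin, the low value being replicate 1 in both. Treated skin held 13.85, 25.79 and 6.776 CPM in fl/fl and 3.577, 12.62 and 32.01 CPM in the ΔEP libraries. Tumors held 92.51, 23.13 and 21.23 CPM in fl/fl and 118.1, 129.2 and 198.4 CPM in the ΔEP libraries, without overlap between the genotypes. Adam8 went with the keratinocyte marker sum given above at the extremes of that sum, less so at like sums. All 3 libraries with under 4 CPM had a sum of 6269 to 6773 CPM, and the 4 libraries with over 90 CPM had a sum of 31840 to 37850 CPM. Mock fl/fl replicates 2 and 3, with sums of 31140 and 28640 CPM, held 32.89 and 51.75 CPM of Adam8. ΔEP tumor replicates 1 and 3, with sums of 31840 and 32650 CPM, held 118.1 and 198.4 CPM. The gene most similar to it by Pearson's r was Krt14 (r = 0.9782 over 17 libraries, 18251 genes), the basal keratin. By Spearman's rho the nearest were other genes, Hk1 (0.9877) and Tmem43 (0.9828). Markers of leukocytes (16 gene IDs, Itgam having 2) summed to 102 CPM in fl/fl tumor replicate 1, 24.96 and 37.24 CPM in the other fl/fl tumors and 98.41 to 113.2 CPM in ΔEP tumors. Cd74 (54.72 to 83.37 CPM in ΔEP tumors) and S100a4 (13.75 to 37.49 CPM) made up most of the latter sum. In fl/fl tumors Cd74 was at 10.65 to 28.5 CPM, below every ΔEP tumor, and S100a4 at 1.522 to 63.5 CPM, overlapping them. The pan-leukocyte marker Ptprc was at or below 1.5 CPM in all tumors, Csf1r and Cd68 overlapped between the genotypes, Cd207 was at 0 in all tumors, Adgre1 in all ΔEP and Csf3r and Cd3e in all fl/fl tumors. Of the 5 leukocyte markers with enough counts 0 were called between the genotypes in tumors, with a median log2 difference of −0.04. In bulk libraries fewer cells of a type and less RNA per cell cannot be told apart, and the part of either marker list in the Adam8 values was not tested.

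**Figure D3:**
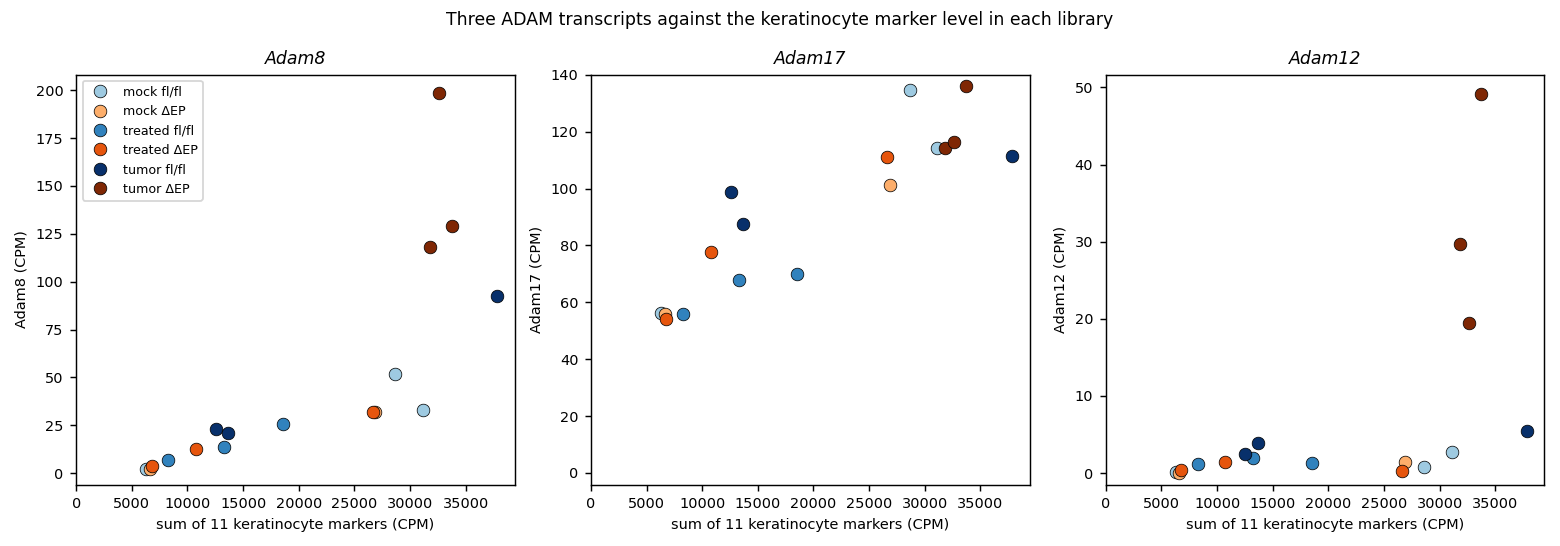
Adam8, Adam17 and Adam12 (CPM, vertical axes) against the summed CPM of 11 keratinocyte markers (horizontal axes) in the 17 libraries, coloured by group. Adam8 and Adam17 tended to be higher where the marker sum was higher, with Adam8 differing between mock libraries and ΔEP tumors of like sum. Adam12 was high in the 3 ΔEP tumors only, fl/fl tumor replicate 1 having the highest marker sum and 5.5 CPM of Adam12.

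Adam12 (ENSMUSG00000054555, chromosome 7) encodes a protease of wound and tumor tissue that can release the EGF receptor ligand HB-EGF. It was nearly absent outside tumors, at 0.1106, 2.741 and 0.7709 CPM in mock fl/fl skin, 0 and 1.437 CPM in mock ΔEP skin, 1.948, 1.311 and 1.173 CPM in treated fl/fl skin and 0.3577, 1.431 and 0.337 CPM in treated ΔEP skin (0 to 18 reads a library). The fl/fl tumors held 5.5, 2.435 and 3.92 CPM (11, 16 and 12 reads) and the ΔEP tumors 29.65, 49.2 and 19.5 CPM (133, 272 and 103 reads). The lowest ΔEP tumor thus stood above the highest of the other 14 libraries. Fibroblast markers (12 genes) summed to 132.5 to 617.6 CPM in ΔEP tumors, 184.6 to 708 CPM in fl/fl tumors and 953.3 to 2382 CPM in mock fl/fl skin. Single markers differed in direction, since Vim was at 33.22 to 49.93 CPM in ΔEP and 3.267 to 17 CPM in fl/fl tumors and Pdgfra at 2.083 to 6.693 and 0.5 to 2.739 CPM, whereas Dcn was at 0.1893 to 2.898 and 3.267 to 10.04 CPM. Of the 11 fibroblast markers tested between the genotypes in tumors 0 were called and the median log2 difference was 0.65, and their part in the Adam12 values was not tested. Adam19 (ENSMUSG00000011256, chromosome 11), which encodes a further sheddase, was scarce throughout. Its group means ran from 0.9773 CPM (ΔEP tumors) to 3.64 CPM (mock fl/fl skin), and neighbouring groups overlapped along the whole order.

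Adamts1 (ENSMUSG00000022893, chromosome 16) and Adamts9 (ENSMUSG00000030022, chromosome 6), both encoding versican-cleaving enzymes, followed different courses. Adamts1 measured 192.4, 137.6 and 152.3 CPM in mock fl/fl skin and 201.5 and 153.4 CPM in mock ΔEP skin. In treated skin it stayed at 183.8, 175.3 and 143.3 CPM in fl/fl and stood at 234.4, 329 and 324.9 CPM in the ΔEP libraries, which lay above all fl/fl ones. Tumors held 1055, 339.8 and 173.5 CPM in fl/fl and 850.7, 893.4 and 1191 CPM in the ΔEP libraries.

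Adamts9 was near 17 CPM in mock skin of both genotypes (15.93, 18.21 and 17.15 CPM in fl/fl, 19.96 and 15.45 CPM in the ΔEP libraries). It reached 79.64, 122.2 and 154.2 CPM in treated fl/fl skin and 24.5, 72.34 and 50.72 CPM in treated ΔEP skin, again without overlap between the genotypes. Tumors held 7, 93.75 and 43.77 CPM in fl/fl and 7.802, 12.84 and 5.869 CPM in the ΔEP libraries, so that every ΔEP tumor was below every mock library. For Adamts9, 9.18% of exonic bases are shared with A730049H05Rik and 2.82% with Gm15737, both antisense, which were also the genes most similar to it (r = 0.9628 and 0.97 over 17 libraries). Their mean levels were 4.031 and 4.275 CPM against 44.78 CPM for Adamts9. Among the hair follicle markers, Lgr5 was also highest in treated fl/fl skin, at 18.68 to 44.78 CPM in mock skin, 112.5 to 130.7 CPM in treated fl/fl skin, 35.22 to 95.76 CPM in treated ΔEP skin and 2.5 to 15.68 CPM in tumors. Other markers of the list had other courses. Sox9 was at 129.5 to 152.9 CPM in treated fl/fl skin and 338 to 671.9 CPM in fl/fl tumors. Cd34 was at 18.36 to 28.67 CPM in treated fl/fl skin and 57.34 to 231.4 CPM in ΔEP tumors. Krt17 was highest in a tumor and Gata3 in a mock library. Lgr5 was chosen after its values were seen, and its part in the Adamts9 values was not tested.

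The ratio of Adamts1 to Adamts9 counts put these courses in one number. It was 7.559 to 12.08 in mock fl/fl and 9.93 to 10.09 in mock ΔEP libraries. In treated skin it was 0.9298 to 2.308 in fl/fl and 4.549 to 9.569 in ΔEP libraries, and in tumors 3.625 to 150.7 in fl/fl and 69.56 to 203 in ΔEP libraries. The genotypes overlapped in mock skin and tumors but not in treated skin. The separation in treated skin follows from the values above, where Adamts1 was higher and Adamts9 lower in every ΔEP library. It is therefore no separate result. Here fl/fl tumor replicate 1, at 150.7, lay among the ΔEP tumors.

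**Figure D4:**
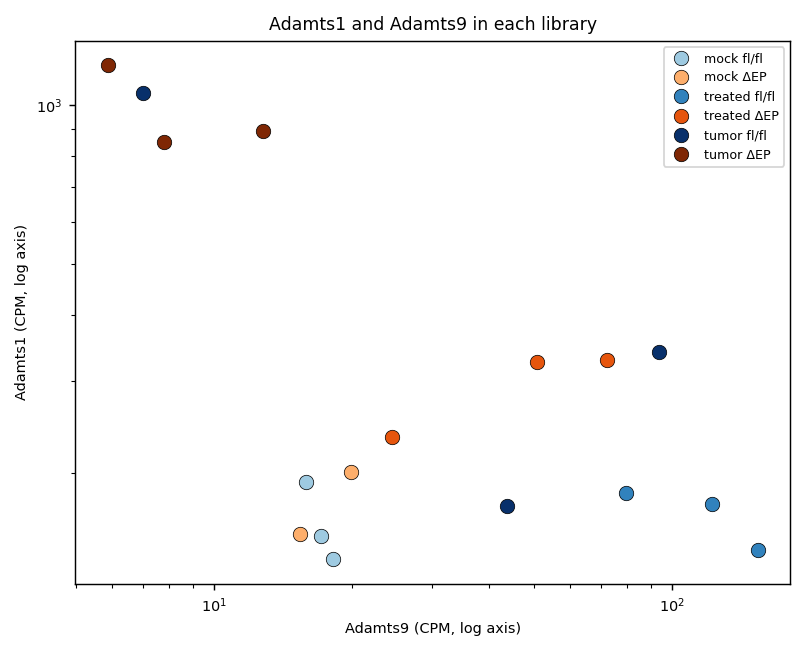
Adamts1 against Adamts9 in each library (CPM, both axes logarithmic), coloured by group. Mock libraries form one cluster near 17 CPM of Adamts9, treated fl/fl skin lies to the right of it, and the ΔEP tumors together with fl/fl tumor replicate 1 lie at the upper left, with 850.7 to 1191 CPM of Adamts1 and 5.869 to 12.84 CPM of Adamts9.

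Adamts20 (ENSMUSG00000022449, chromosome 15), the gene mutated in belted mice and needed for melanoblasts to populate the skin, was the one member at or near 0 in every tumor. It measured 12.17, 2.153 and 0.3855 CPM in mock fl/fl skin and 13.76 and 0.3593 CPM in mock ΔEP skin, the high value being replicate 1 in both. Treated skin held 13.42, 7.431 and 10.55 CPM in fl/fl and 17.35, 18.61 and 5.223 CPM in the ΔEP libraries. No read was counted in the 3 fl/fl tumors, which with a floor of 3 counts over the group allows up to 0.2579 CPM, and 0, 3 and 0 reads were counted in the ΔEP tumors. Melanocyte markers (8 genes, Tyr, Dct and Pmel among them) were also high in the mock replicates 1 and low in tumors. They summed to 411.5 and 365 CPM in the mock replicates 1 and 56.05 to 137.4 CPM in the other mock libraries. In treated skin the sum was 91.83 to 463.2 CPM and in tumors 18.37 to 45.96 CPM. The other libraries did not keep the order of Adamts20. Treated ΔEP replicate 2, at 18.61 CPM of Adamts20, had a sum of 114.5 CPM, and mock fl/fl replicate 2, at 2.153 CPM, one of 137.4 CPM. None of the 8 markers was at 0 throughout any group. Between tumors and treated skin 3 of 6 melanocyte markers tested were called lower in fl/fl mice and 5 of 6 in ΔEP mice. Of all genes 10.5% and 15.5% were called lower there. Of the 11 hair follicle markers some followed Adamts20 and others did not. Shh was at 22.01 and 19.96 CPM in the mock replicates 1, 0 to 0.7831 CPM in the other mock libraries, 5.343 to 23.78 CPM in treated skin and 0 to 0.5 CPM in tumors. Dlx3, Msx2, Lhx2 and Krt75 were likewise high in the mock replicates 1 and in treated skin and low in tumors, Dlx3 at 213 and 203.1 CPM in those replicates, 1.078 to 1.37 CPM in the other mock libraries, 61.54 to 215.8 CPM in treated skin and 2.287 to 5.327 CPM in tumors. By contrast, Sox9 was at 77.79 to 178.4 CPM in treated skin and 253.9 to 671.9 CPM in tumors, and Krt17 at 794.5 to 1348 and 1240 to 2115 CPM. Gata3 was low in the mock replicates 1 (167.9 and 200.7 CPM, against 618.8 to 699.9 CPM in the other mock libraries). The whole list summed to 1621 to 1993 CPM in treated skin and 1720 to 2734 CPM in tumors. The follicle genes that followed Adamts20 were chosen after their values were seen. The part of melanocytes and of follicle cells in the Adamts20 values was not tested.

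The comparison of the genotypes within tumors asks how the loss of TTP in keratinocytes alters papilloma cells. Adam12 had the largest difference of the 8 members tested, 3.01 higher on the log2 scale in ΔEP tumors (SE 0.46), a fold of 8.072, and all 3 ΔEP tumors exceeded all 3 fl/fl tumors. A gene was called changed where the fold was over 2 and the adjusted p under 0.05 (edgeR quasi-likelihood test, Benjamini-Hochberg over all genes tested). Of the 8 members tested 0 were called, and 4 of 14067 genes were, 0.0284%. Unadjusted p-values were under 0.05 for 3 of the 8 members and for 14% of all genes. These 3 were Adam12, with the 14th lowest p-value of all genes (adjusted p = 0.144), Adam8 at 1.61 (SE 0.54, adjusted p = 0.265) and Adamts9 at −2.61 (SE 0.76, adjusted p = 0.237). The others, Adam9, Adam10, Adam15, Adam17 and Adamts1, ran from 0.16 to 0.78. Libraries of the genotypes did not overlap in 6 of the 8 members, against 17.9% of all genes, Adamts1 and Adamts9 being the ones that did. Over the 8 members the median log2 difference was 0.58, and over all genes −0.02. Adam19 and Adamts20 had too few counts for the test. The study's own discussion mentions Adam12 as increased without TTP.

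These calls depended on the test and on fl/fl tumor replicate 1. DESeq2 called Adam12 (adjusted p = 1.46e-06) and Adamts9 (adjusted p = 0.0144), as did edgeR's exact test (5.99e-06 and 0.0404), at nearly the same fold. Without fl/fl tumor replicate 1, the quasi-likelihood test called 5 members, Adam12 (3.33, adjusted p = 0.001085), Adam8 (2.63), Adam15, Adamts1 and Adamts9 (−3.07), while 16.9% of all genes were called. That library lay within the range of ΔEP tumors for Adamts1 and Adamts9 and within 3 CPM below it for Adam9, Adam10, Adam15 and Adam17, whereas its Adam12 level of 5.5 CPM was well under the lowest ΔEP tumor at 19.5 CPM. With any other single library left out Adam12 was not called, at log2 differences of 2.60 to 3.31.

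**Figure D5:**
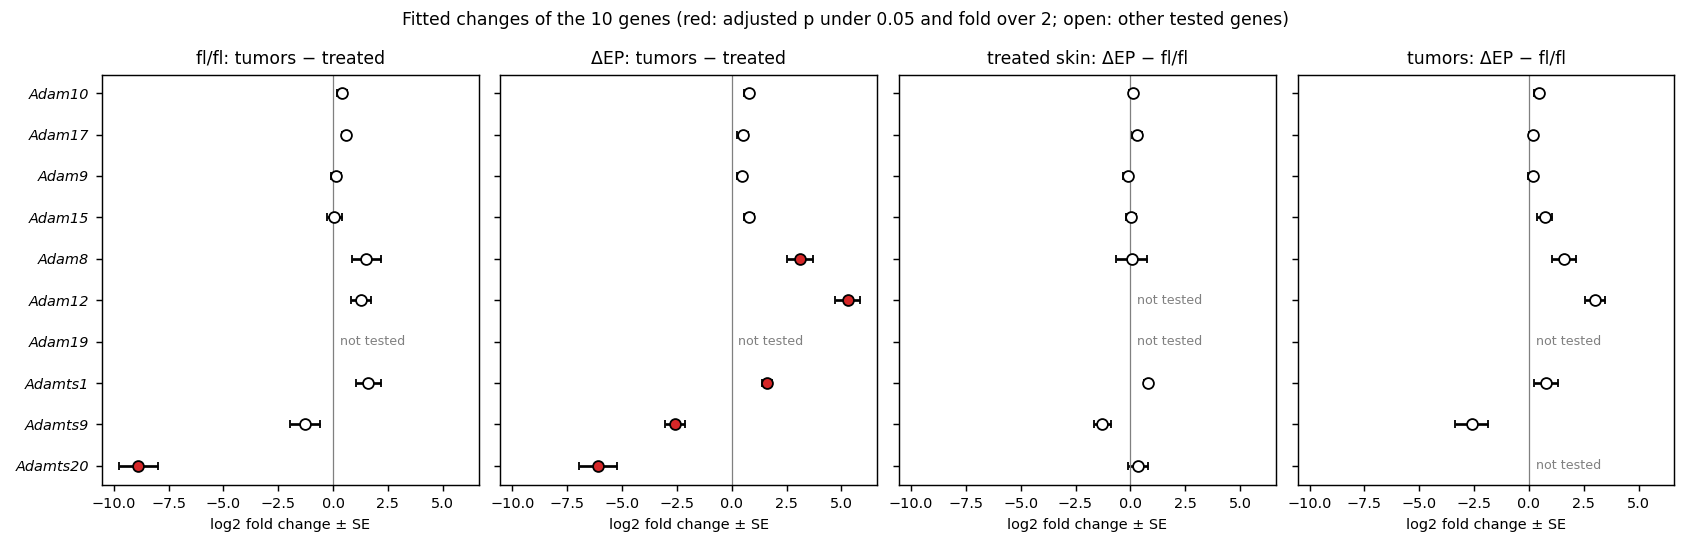
Log2 fold changes with SE (horizontal axes) of the 10 genes in 4 comparisons, by the edgeR quasi-likelihood test, red points having an adjusted p under 0.05 and a fold over 2. Red points number 1 in fl/fl (Adamts20), 5 in ΔEP tumors against treated skin, and 0 between the genotypes in treated skin and in tumors.

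In treated skin Adamts1 and Adamts9 had the lowest p-values among the members, and neither was called. Adamts1 was 0.80 higher on the log2 scale in ΔEP libraries (SE 0.19, adjusted p = 0.816 by edgeR) and Adamts9 1.28 lower (−1.28, SE 0.39, adjusted p = 0.897). Of the 8 members tested 0 were called, by this test, by DESeq2 and by the exact test, and 1 of 16232 genes was, 0.00616%. These 2 alone had an unadjusted p under 0.05, as had 5.55% of all genes. With no filter on low counts Adamts9 was called (adjusted p = 2.71e-05). These 2 members were also the ones whose libraries did not overlap, against 11.7% of all genes, and the other 6 ran from −0.12 to 0.36. In mock skin 0 of 9 members were called (0% of 15920 genes), 0 had an unadjusted p under 0.05 (1.59% of genes), DESeq2 called 0, and all 9 overlapped between the genotypes, where 12.6% of genes did not.

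Tumors against treated skin sets papilloma cells beside those of the treated skin around them. In ΔEP mice 5 of 9 members tested were called, 3 higher and 2 lower, where 26% of all 15289 genes were, 10.5% higher and 15.5% lower. Adam12 rose by 5.29 on the log2 scale (SE 0.57, adjusted p = 0.000524), Adam8 by 3.12 (SE 0.60, adjusted p = 0.00517) and Adamts1 by 1.62 (SE 0.22, adjusted p = 0.00143). Adamts9 fell by 2.58 (SE 0.44, adjusted p = 0.00329). Adamts20 fell as well, with 3 reads in the tumors against 271 in treated skin, a ratio of 71.92 in depth-scaled counts (95% interval for counting error alone 24.35 to 350.9, adjusted p = 0.00173). The same 5 genes were called with each library left out and by every other test and filter tried. Adam10 (0.77, adjusted p = 0.0144) and Adam15 (0.79, adjusted p = 0.0215) passed the test below the fold of 2, so that 7 of 9 members and 36.8% of genes had an adjusted p under 0.05 at any fold. All 9 members had tumor and treated libraries that did not overlap, against 52.2% of all genes.

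In fl/fl mice 1 of 9 members was called between tumors and treated skin, where 18% of 15362 genes were and 10.5% were lower. This was Adamts20, at least 43.12-fold lower in tumors (239 reads in treated skin against a floor of 3, adjusted p = 0.00295), and it was called under every alternative. Adam17 passed the test below the fold of 2 (0.59 higher, SE 0.17, adjusted p = 0.0416). At any fold, Adam17 and Adamts20 were the only members with an adjusted p under 0.05, against 25% of genes. Adamts1 (1.60, SE 0.57, adjusted p = 0.0747), Adam8 (1.52, SE 0.66, adjusted p = 0.124) and Adam12 (1.27, SE 0.47, adjusted p = 0.0846) were not called. Adamts1 was called by DESeq2 (adjusted p = 0.0219), by the exact test (0.0235) and in a fit of all libraries (0.0218), and its log2 change was between 0.61 and 2.03 with 1 library left out, 0.61 being the value without fl/fl tumor replicate 1. Without that library Adam8 stood at 0.55 and Adam12 at 0.99.

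Against mock skin, ΔEP tumors had 3 of 8 members called, all higher, where 14.3% of 15027 genes were and 7.05% were higher. Adam12 rose by 5.53 (SE 0.94, adjusted p = 0.0181), Adamts1 by 2.37 (SE 0.31, adjusted p = 0.0104) and Adam10 by 1.12 (SE 0.26, adjusted p = 0.0378). Adam8 stood at 3.06 (SE 0.93, adjusted p = 0.0708), with 17.07 ± 21.08 CPM in mock ΔEP skin (SD, n = 2). These calls rest on few libraries. Leaving out ΔEP tumor replicate 2 or 3 left 0 members called (0.709% and 1.51% of all genes), and leaving out replicate 1 left 1, Adamts1 (2.75%). Leaving out either mock ΔEP library leaves 1 in that group, so those refits are given by size only. The sizes moved too. Without mock ΔEP replicate 1 Adam12 stood at 4.46 and Adam8 at 2.18. Without mock ΔEP replicate 2 they stood at 10.29 and 6.08, the first fitted against 0 reads and so set by the prior count of the fit. In fl/fl mice 0 of 8 members were called between tumors and mock skin (4.11% of 15394 genes), 1 had an unadjusted p under 0.05, against 26.2% of genes (Adamts1, 1.65, SE 0.61, adjusted p = 0.139), and DESeq2 and the exact test called 0. Without fl/fl tumor replicate 1 the Adamts1 difference was 0.65. A fit of all 17 libraries called 2, Adamts1 and Adamts20. Adamts20 was at least 19.76-fold lower in fl/fl tumors than in mock skin, of whose 125 reads 110 were in replicate 1. Without that replicate, an alternative chosen after the data were seen, it was at least 3.756-fold lower.

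From mock to treated skin Adamts9 had the largest difference of the members in fl/fl mice. It was 2.81 higher on the log2 scale in treated fl/fl skin (SE 0.27, a fold of 6.997), the 6th lowest p-value of 16601 genes (adjusted p = 0.0585). It was the only member with an unadjusted p under 0.05 (5.5% of genes) and the only one without overlap (10.2% of genes). No gene at all was called in this comparison (0%, edgeR), whereas DESeq2 and the exact test called Adamts9 (adjusted p = 2.43e-14 and 3.42e-11). Without mock fl/fl replicate 1 the quasi-likelihood test called 3 members, Adamts9, Adam19 and Adamts20, and 15.1% of all genes. In ΔEP mice Adamts9 was 1.47 higher in treated skin (SE 0.50, adjusted p = 0.907) and Adamts1 0.73 higher (SE 0.30, adjusted p = 0.9999), with 0 of 8 members and 0% of 15891 genes called, DESeq2 also calling 0 members. These 2 had an unadjusted p under 0.05 (4.8% of genes) and libraries that did not overlap (16.1% of genes).

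Whether a stage change differed between genotypes was tested as a difference of differences. Between tumors and treated skin the change of Adam12 was 4.07 larger on the log2 scale in ΔEP mice (SE 0.77, adjusted p = 0.148, the 17th lowest p-value of 17017 genes). It was called by DESeq2 (adjusted p = 0.000641) and, without fl/fl tumor replicate 1, by the quasi-likelihood test (adjusted p = 0.00758). In all 0 of 9 members and 0.0118% of genes were called, and 1 member and 13.2% of genes had an unadjusted p under 0.05. Between tumors and mock skin Adam12 (3.77, SE 1.5) and Adamts9 (−2.56, SE 0.97) were the 2 of 10 members with an unadjusted p under 0.05 (8.18% of genes), and 0 members and 0% of genes were called. With 1 library left out Adam12 ran from 2.59 to 8.68, the latter again fitted against 0 reads, and Adamts9 from −3.06 to −1.65. Between treated and mock skin the log2 change of Adamts9 was smaller in ΔEP mice (−1.34, SE 0.56). This was the 1 member with an unadjusted p under 0.05 (1.45% of genes), with again 0 of 10 members and 0% of genes called.

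Genes that mature, guide or inhibit these proteases were described as a list of 20. Between tumors and treated skin 1 rose and 4 fell of the 17 tested in fl/fl mice, where 18% of all genes were called. In ΔEP mice 2 rose and 3 fell of the 15 tested, where 26% of all genes were called. Timp3, the matrix-bound inhibitor of ADAM17, ADAM10 and several ADAMTS enzymes, fell by 2.06 in fl/fl tumors (SE 0.48, adjusted p = 0.0203) and by 3.84 in ΔEP tumors (SE 0.46, adjusted p = 0.000892). Its mean was 84.94 CPM in fl/fl and 23.72 CPM in the tumors of ΔEP mice, a log2 difference of −1.99 that was not called (adjusted p = 0.228). Timp2 fell in both genotypes (by 1.68 and 1.56), and Timp1, a scarce transcript at 2.58 CPM on average, rose in both (by 2.47 and 3.09). Furin, the convertase that removes the inhibitory prodomain of ADAM proteases, rose by 1.32 in ΔEP tumors (SE 0.16, adjusted p = 0.000856). The fl/fl calls were less firm, with 0 of the list called without treated fl/fl replicate 1 or 3 (7.21% and 9.91% of all genes). Against mock skin 2 of 15 rose (Furin and Timp1) and 1 fell (Timp3) in ΔEP tumors, where 14.3% of all genes were called. None of them was called once any ΔEP tumor library was left out (0.709% to 2.75% of all genes). In fl/fl tumors 0 of 15 were called, against 4.11% of all genes. Rhbdf1 and Rhbdf2, whose products carry ADAM17 to the surface, were detected in every library (means 38.1 and 67.75 CPM) and were not among the called genes.

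Substrates of the sheddases were described in 2 lists and those of the ADAMTS enzymes in 1. The counts below stand beside the share of all genes called. For tumors against treated skin it was 18% in fl/fl and 26% in ΔEP mice, and against mock skin 4.11% and 14.3%. Ligands of the EGF receptor and of related receptors, here called EGF receptor ligands, numbered 8, the neuregulin gene Nrg1 among them. Of these 7 were tested, and 7 rose in fl/fl and 6 in ΔEP tumors against treated skin, with a median log2 change of 3.45 and 3.89. Ereg rose from 1.694 to 267 CPM in fl/fl and from 3.673 to 854.2 CPM in ΔEP mice, and Areg from 16.13 to 201.9 and from 16.96 to 842.7 CPM. Between genotypes none of the ligands was called, in tumors Areg (1.93, adjusted p = 0.19) and Ereg (1.54, adjusted p = 0.228) having the lowest p-values. The study reported both as increased in ΔEP tumor cells by its own edgeR comparison. It also measured selected genes by RT-qPCR in sorted cells of other papillomas. Of 25 other substrates 3 rose and 2 fell of 23 tested in fl/fl tumors against treated skin, and 5 rose and 0 fell of 23 in ΔEP tumors. Tnfrsf1b, a TNF receptor shed by ADAM17, rose by 2.27 in fl/fl (adjusted p = 0.0098) and by 4.76 in ΔEP tumors (adjusted p = 0.00148), and Cd44 by 1.67 and 1.82. Notch1 (−1.12) and the Notch ligand Jag2 (−1.23) were the genes that fell in fl/fl tumors. Of 19 matrix substrates and partners of ADAMTS enzymes, 1 rose and 2 fell of 12 tested in fl/fl tumors and 2 rose and 3 fell of 11 in ΔEP tumors, Fn1 falling in both (−3.80 and −3.17). Against mock skin 5 of 7 EGF receptor ligands tested rose in fl/fl and 7 of 7 in ΔEP tumors. Of the other substrates 2 of 23 and 3 of 23 tested rose. Of the matrix genes 3 of 11 and 2 of 13 tested fell. No gene of any of these lists was called between genotypes, between treated and mock skin, or in the differences of differences. The comparison of tumors between genotypes called more genes with fl/fl tumor replicate 1 left out. These were 3 of the 8 EGF receptor ligands listed, 10 of the 25 other substrates and 7 of the 19 matrix genes. Of the 20 genes of protease maturation and inhibition 3 were called. These counts are out of the genes listed, whereas the 16.9% of all genes given above is out of the genes tested.

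The rest of both families was mostly silent or scarce. Of 27 other ADAM genes listed, 9 had no count in any library, and 5 (Adam1a, Adam22, Adam23, Adam30 and Adam33) averaged over 1 CPM. Of 16 other ADAMTS genes 12 averaged over 1 CPM. Adamts5, an aggrecan- and versican-cleaving enzyme, had its highest group mean in ΔEP tumors, as Adamts1 had. It stood at 5.099 ± 1.519 CPM in mock fl/fl (SD, n = 3), 9.538 ± 1.499 CPM in treated fl/fl and 15.91 ± 12.87 CPM in fl/fl tumor libraries, and at 4.359 ± 0.4412 CPM (n = 2), 19.64 ± 11.52 and 65.58 ± 12.48 CPM (n = 3) in the same stages of ΔEP mice. It rose in ΔEP tumors against treated skin (1.63, SE 0.44, adjusted p = 0.0203) and mock skin (3.81, SE 0.34, adjusted p = 0.00484), and its difference between genotypes in tumors was 1.96 (adjusted p = 0.228), not called. From treated skin to tumors 4 of 9 other ADAMTS genes tested were called lower in fl/fl mice, as were 10.5% of all genes. In ΔEP mice 2 of 6 tested were called lower, as were 15.5% of all genes, and 1, Adamts5, was called higher. Adamts3 (−3.15), Adamts6 (−4.79), Adamts10 (−3.58) and Adamts14 (−3.79) fell in fl/fl mice, Adamts3 (−4.15) and Adamts17 (−2.29) in ΔEP mice, all of them from means of 2.885 to 10.38 CPM in treated skin. Of the other ADAM genes Adam1a alone was called, falling by 2.07 between treated skin and tumors of ΔEP mice (adjusted p = 0.0125), where it was the only one of the 27 with enough counts to test.

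Similarity over the 17 libraries was described by Pearson's r of log2 CPM with 18251 other genes, libraries of a group sharing their stage and genotype. Among the members themselves Adam10 and Adamts1 (0.9149), Adam8 and Adam17 (0.8988) and Adam8 and Adam15 (0.886) were most alike, and Adam17 and Adamts20 most opposed (−0.7817). The genes nearest to Adam12 were Snapc1 (0.9495) and Fxyd5 (0.9471), to Adam10 Lrrc8a (0.9502) and Gm28035 (0.9482), to Adam17 Rab11a (0.9719) and AC147560.1 (0.9658), to Adamts1 Prelid1 (0.957) and Tmed9 (0.9528), and to Adamts20 Cdh6 (0.957) and Nxpe4 (0.9525). The second gene for Adam8 was Sh3bgrl3 (0.9751) and for Adam15 Cdk6 (0.9658). Adam9 (Med13l, 0.887, and Tmem30a, 0.8868) and Adam19 (Gm37607, 0.9034, and Usp33, 0.8754) had less similar neighbours. Spearman's rho named 5 of these 20 genes again, for 4 of the members.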

How the data were processed

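RNA-Seq counts of 17 libraries of sorted mouse epidermal cells (6 groups) were analysed. The deposited values are whole-number read counts per gene, made by the authors, with no normalization. The labels' processing notes name mm10, Trimmomatic 0.36, STAR 2.5.3, HTSeq 0.9.1 and DESeq2, and the study's methods edgeR. The annotation release, strand setting and treatment of duplicate reads are not given in the sources used here. Such choices affect genes that share exonic bases with a neighbour (Adam15, Adamts9, Adam19, Adam17 and, with 46 bases, Adam8). Files of the authors' own comparisons were not used.

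Mock ΔEP samples 2 and 3 held identical counts in all genes and were counted as 1 library. Each pair of groups was fitted alone with edgeR 4.0.16 in R 4.3.3 (filterByExpr, TMM, quasi-likelihood F test, two-sided, Benjamini-Hochberg over all genes tested). SE is the absolute log2 fold change divided by the square root of F. Differences of differences were fitted over 4 groups. Fold changes are fitted values and depend on edgeR's prior count where a group is near 0. For Adamts20 in tumors, a floor of 3 counts over the group or the ratio of counts with an exact 95% interval was used, covering counting error only, since reads are not independent molecules. The scripts were tested on simulated counts with known changes. Depth was 2808550 to 9617985 counts a library, so a gene at 1 CPM rests on few reads.

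Exon lengths, positions and 3′ untranslated regions came from GENCODE (GRCm38), in which 52403 of the 52636 gene IDs were found. Regions of like length are those of 0.8 to 1.25 times the length. Similarity used log2 CPM with a prior count of 2 over genes passing filterByExpr across the 6 groups (18252). The members, gene lists and markers were chosen with earlier results of these data known. All 10 members are named in every comparison, with, from each list, up to 3 called genes in each direction by p or, between genotypes, the 2 lowest p-values. Only some of these are printed. Alternatives were DESeq2 1.42.0, edgeR's exact test, one fit of all libraries, other scaling and filters, a replicate block and leaving out each library.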

Additional observations from a re-analysis of the deposited data

How the results depend on the processing

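Number of members called, by setting, with the share of all genes called in parentheses. In tumors between genotypes (0 in the report, 0.0284%) DESeq2 called 2 (2.6%), the exact test 2 (2.62%) and the fit with no low-count filter 3 (4.27%), with 0 to 5 when 1 library was left out. In treated skin between genotypes (0, 0.00616%) no filter gave 1 (0.646%). For fl/fl tumors against treated skin (1, 18%), DESeq2 gave 2 (21%), the exact test 3 (23.3%), one fit of all libraries 2 (15.2%) and no filter 4 (12.9%), with 1 to 2 when 1 library was left out. For fl/fl tumors against mock skin (0, 4.11%), one fit of all libraries gave 2 (17.6%) and no filter 3 (7.64%), with 0 to 1 when 1 library was left out. For treated against mock fl/fl skin (0, 0%), DESeq2 (0.711%), the exact test (0.626%) and no filter (0.0883%) each gave 1, with 0 to 3 when 1 library was left out. For ΔEP tumors against mock skin (3, 14.3%), no filter gave 6 (13.1%), with 0 to 7 when 1 library was left out. For the difference of differences of tumors and treated skin (0, 0.0118%), DESeq2 gave 1 (1.35%) and no filter 3 (2.76%), with 0 to 2 when 1 library was left out, and for that of tumors and mock skin (0, 0%) no filter gave 1 (0.522%). The counts of ΔEP tumors against treated skin (5), of mock skin between genotypes (0), of treated against mock ΔEP skin (0) and of treated and mock skin in the difference of differences (0) stayed as they were under every alternative run. The cause of these moves was not tested.

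Of 32 log2 changes that were called or had an unadjusted p under 0.05, none changed sign in the 232 refits with every library and the 204 with 1 left out. The 73 others, for which neither held, a limit set after their refits were seen, are given by range: 29 of them changed sign in 71 of 1072 refits, among them Adam9 between genotypes in treated skin (−0.12, in 2 refits). The largest such log2 change in the reported fit was 2.87 (Adamts20, tumors and treated skin in the difference of differences). The replicate block moved no count of members called by over 1.5 times, and in ΔEP tumors against mock skin, where 3 stayed 3, it gave Adam8 (adjusted p = 0.0458) in place of Adam10 (0.174). The labels give same-numbered libraries nothing in common but the number. In no comparison with 3 pairs did every pair's deviations correlate over 0.1 (−0.546 to 0.391). With 2 pairs they correlated at 0.782 and 0.569 in mock skin between genotypes, 0.569 and 0.141 in treated against mock ΔEP skin and 0.0943 and 0.124 in ΔEP tumors against mock skin, and the block raised the genes called from 0 to 110 and from 0 to 43 in the first 2 of these, with 0 members called in both. The exact test could not be run for differences of differences. Where a mock ΔEP library was left out, the lone one was taken to vary like the other group.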
